A study of Homo sapiens with 6 samples.

Results

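Base excision repair and single-strand break repair were examined through 9 genes taken from a list of names: UNG, OGG1, APEX1, POLB, FEN1, APTX, TDP1, XRCC1 and LIG3. They are 9 of the 63677 genes in the deposited count table, and all 9 were among the 21729 genes with more than 10 counts in total, the minimum for testing. RNA was measured in UWB1.289, an ovarian cancer cell line that the study describes as BRCA1-deficient and whose genotype the sample labels give as WT. The Olaparib group (n = 3) was kept for 24 h in medium with Olaparib, an inhibitor of the break-sensing enzymes PARP1 and PARP2, and the DMSO group (n = 3) for 24 h in medium with the solvent alone. The dose is 4 µM in the labels and in the study's text but 10 µM in the text on the design of the series. Both groups are the same line and differ by no label other than the treatment. The labels mention 3 dishes per condition of this 1 cell line without saying which dish gave which sample. The study's text calls the 3 replicates of each readout independent. P-values measure the spread between these samples of 1 cell line, which may be in part technical. Total counts were 35360458 to 39640775 per sample, mitochondrial genes took 5.68% to 6.11% and the TMM factors were 0.995 to 1.01. Replicate 1 differed more from the other samples of its condition (chi-square per degree of freedom 4.02 and 4.11 for DMSO, 3.80 and 3.35 for Olaparib) than those did from each other (1.81 and 2.28).

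In base excision repair a DNA glycosylase cuts out a damaged or wrong base, an AP endonuclease opens the strand at the empty sugar, a polymerase fills the gap and a ligase closes the nick. In the short-patch branch DNA polymerase beta fills the gap and the scaffold XRCC1 with its partner DNA ligase III finishes the repair. In the long-patch branch the replication clamp PCNA and the replicative polymerases displace a flap, which FEN1 removes before DNA ligase I seals. Single-strand breaks with blocked ends enter the same route after end-processing enzymes have cleaned them. PARP1 binds such breaks, modifies proteins around them with poly(ADP-ribose) and so calls in XRCC1, and PARP inhibitors block this signal and hold the enzyme on the break.

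After 24 h with Olaparib, UNG fell and the other 8 genes did not pass the test in either direction. UNG lost 13.2% of its normalized count, whereas the estimates of the other 8 genes lay between -2.40% and 1.30% of their DMSO level. UNG encodes uracil-DNA glycosylase, which removes uracil left in DNA by misplaced dUTP or by deamination of cytosine. It is transcribed from 2 start sites that give a nuclear and a mitochondrial form, 575 bases apart in the RefSeq annotation. The counts add both together, and GENCODE release 44 lists 14 transcripts of the gene, 6 of them protein coding.

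The stretches upstream of both UNG starts and of the FEN1 start are shown because these are the members on the S phase list used below and because UNG is the member that changed. They come from the RefSeq promoter table (GRCh38.p14), run 5′ to 3′ on the plus strand of each gene, and are trimmed to the part free of annotated exons. Capitals mark matches to TTTNNCGC, letters that fit the consensus of the E2F factors of S phase genes, and to CACGTG, the E-box core. Both strands were searched, and no match of one motif overlapped the other.
UNG, upstream start, chr12:109097347-109097596: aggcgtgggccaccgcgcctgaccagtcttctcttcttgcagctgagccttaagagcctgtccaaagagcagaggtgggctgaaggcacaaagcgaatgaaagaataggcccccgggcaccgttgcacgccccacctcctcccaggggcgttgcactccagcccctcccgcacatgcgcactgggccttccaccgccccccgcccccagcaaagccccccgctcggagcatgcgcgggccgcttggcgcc
UNG, downstream start, chr12:109097922-109098117: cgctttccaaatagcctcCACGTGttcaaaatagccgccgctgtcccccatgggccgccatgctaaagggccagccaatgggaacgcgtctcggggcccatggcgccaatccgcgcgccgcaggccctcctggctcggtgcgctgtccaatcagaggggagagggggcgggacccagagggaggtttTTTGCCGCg
FEN1, chr11:61792803-61792910: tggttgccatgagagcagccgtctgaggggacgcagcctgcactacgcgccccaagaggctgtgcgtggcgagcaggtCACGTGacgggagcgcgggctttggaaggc

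From the RefSeq table, 10 windows of 250 bases before a start were searched for 8 of the 9 genes, 2 each for UNG and APTX. TTTNNCGC stood in 1 of the 10 windows, that of the downstream UNG start, and in 5.92% of the 35116 windows in the table. CACGTG stood in 4 of the 10 windows, with 3 matches before APEX1, 2 before the downstream UNG start and 1 each before FEN1 and LIG3, and in 6.34% of all windows. CCAAT, the core of the CCAAT box, stood in 5 of the 10 windows and in 32.0% of all. These matches describe letters in a window and show no binding. No window of POLB was searched.

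UNG (ENSG00000076248, chromosome 12, 109097597 to 109126725 on GRCh38, plus strand) had 4082, 4045 and 4124 normalized counts in the Olaparib samples and 4539, 4749 and 4831 in the DMSO samples. Normalized counts are counts scaled to a common library size by edgeR's TMM factors. All 3 Olaparib samples lay below all 3 DMSO samples, and the gap between the groups was wider than the spread within either of them. The means were 4084 ± 39.5 and 4706 ± 151 (SD, n = 3 each). The log2 fold change of Olaparib over DMSO was -0.20 (SE, the standard error, 0.034, 95% confidence interval -0.27 to -0.13, adjusted p = 0.000216 from edgeR's quasi-likelihood F test, adjusted by Benjamini-Hochberg over the 21729 genes). Without replicate 1 of DMSO it was -0.23 (adjusted p = 0.000102, same edgeR test), and without replicate 1 of Olaparib -0.20 (adjusted p = 0.00110). In percent, UNG fell by 13.2% (interval -17.3% to -8.93%), short of 1.2-fold, the smaller of the limits on fold change that the study's text gives. The exact permutation test (two-sided) gave p = 0.1, the smallest that 3 samples against 3 allow. In bulk RNA, fewer cells that express a gene and less RNA per cell cannot be told apart.

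OGG1 (ENSG00000114026, chromosome 3, 9749944 to 9788219, plus strand), the glycosylase for oxidized guanine, stood at 526, 547 and 519 normalized counts with Olaparib and 553, 551 and 490.1 with DMSO. The groups overlapped, and DMSO replicate 3 was the lowest of the 6 samples. The means were 531 ± 14.4 and 531 ± 35.8 (SD, n = 3 each), with a log2 fold change of -0.00094 (SE 0.057, adjusted p = 0.994, same edgeR test). OGG1 had the fewest counts of the members, 517 to 562 per sample, and the widest interval, -0.12 to 0.12 on the log2 scale.

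APEX1 (ENSG00000100823, chromosome 14, 20455191 to 20457772, plus strand), the main AP endonuclease, had 9049, 9385 and 9353 normalized counts with Olaparib and 8901, 9291 and 9399 with DMSO. Replicate 1 was the lowest sample of each group, and the groups overlapped over nearly their whole range. The log2 fold change was 0.010 (SE 0.030, interval -0.051 to 0.071, adjusted p = 0.927, same edgeR test).

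POLB (ENSG00000070501, chromosome 8), the gap-filling polymerase of the short-patch branch, had 1207, 1225 and 1241 normalized counts with Olaparib and 1303, 1218 and 1209 with DMSO. DMSO replicate 1 stood above the other 5 samples, which lay close together. The log2 fold change was -0.021 (SE 0.045, adjusted p = 0.887, same edgeR test).

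FEN1 (ENSG00000168496, chromosome 11, 61792911 to 61797238, plus strand), the flap endonuclease of the long-patch branch and of Okazaki fragment processing, had 3009, 3152 and 3137 normalized counts with Olaparib and 3162, 3198 and 3167 with DMSO. The Olaparib samples lay below the DMSO samples, but the highest Olaparib sample stood close to the lowest DMSO sample. The means were 3099 ± 78.6 and 3176 ± 19.3 (SD, n = 3 each), and the log2 fold change was -0.035 (SE 0.037, interval -0.11 to 0.040, adjusted p = 0.738, same edgeR test). The difference in FEN1 was within the error of the fit, and its exact permutation p was 0.1.

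Of the end-processing enzymes, APTX (ENSG00000137074, chromosome 9, 32886601 to 33025130, minus strand) removes AMP left on a break by a failed ligation. It had 1349, 1355 and 1353 normalized counts with Olaparib and 1339, 1404 and 1358 with DMSO. The Olaparib samples fell inside the range of the DMSO samples (log2 fold change -0.016, SE 0.043, adjusted p = 0.916, same edgeR test). TDP1 (ENSG00000042088, chromosome 14, 89954939 to 90044764, plus strand) releases topoisomerase I from the 3′ end of a break. It had 1923, 1804 and 1907 normalized counts with Olaparib and 1880.0, 1845 and 1878 with DMSO. Here the DMSO samples lay inside the Olaparib range (log2 fold change 0.0080, SE 0.041, adjusted p = 0.954, same edgeR test).

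XRCC1 (ENSG00000073050, chromosome 19, 43543311 to 43580473, minus strand), the scaffold recruited by poly(ADP-ribose), had 1388, 1527 and 1499 normalized counts with Olaparib and 1428, 1440.5 and 1487 with DMSO. Olaparib replicate 1 was the lowest and Olaparib replicate 2 the highest of the 6 samples (log2 fold change 0.019, SE 0.045, adjusted p = 0.903, same edgeR test). LIG3 (ENSG00000005156, chromosome 17, 34980512 to 35009743, plus strand), which encodes DNA ligase III of nucleus and mitochondria, had 831, 867 and 893 normalized counts with Olaparib and 878, 856 and 866 with DMSO. The Olaparib samples spread to both sides of the DMSO samples (log2 fold change -0.0055, SE 0.047, adjusted p = 0.978, same edgeR test).

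**Figure D1:**
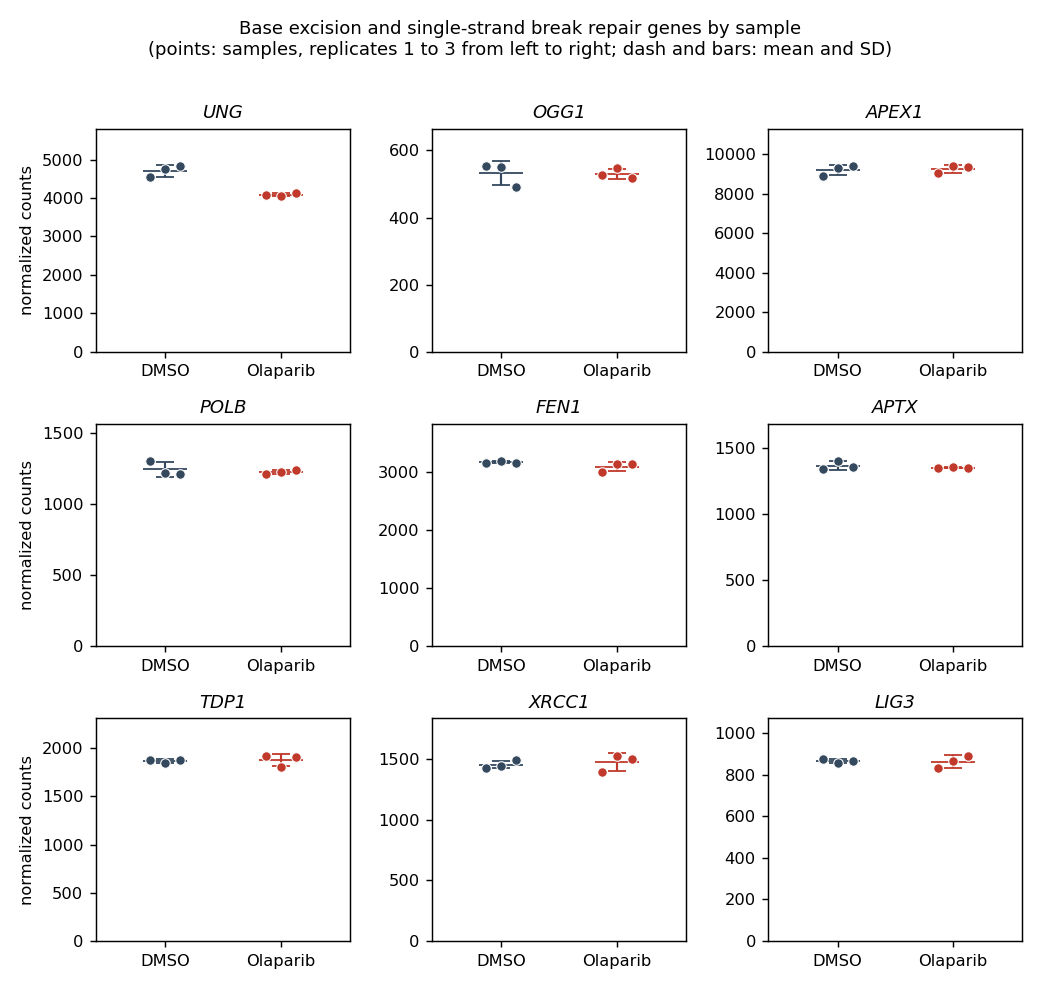
Normalized counts (vertical axes, from 0) of the 9 genes in the 3 DMSO and the 3 Olaparib samples, with points for samples and a dash with bars for the mean and SD. UNG is the panel with a visible gap between groups (4045 to 4124 against 4539 to 4831), and the FEN1 groups are separate only by a narrow margin.

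Read against all genes, 1 of the 9 genes was lower at an adjusted p under 0.05, where 1.21% of the genes tested were lower (263 genes), and 0 of the 9 were higher, where 2.15% were higher (467 genes). In both directions together 3.36% of the genes tested were called. DESeq2's Wald test and limma voom likewise gave 0 higher and 1 lower. At an unadjusted p under 0.05 the count in edgeR was also 0 higher and 1 lower. Over all 21729 genes tested, that unadjusted limit gave 1702 higher and 1515 lower. With the 1.2-fold limit added, 0 of the 9 were called, against 1.21% of the genes tested. Groups that did not overlap were found for 2 of the 9 genes, UNG and FEN1, against 19.3% of the genes tested. The 9 log2 fold changes had a median of -0.0055, beside -0.0042 for all genes tested, with 3 genes above 0 and 6 below.

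The 8 genes other than UNG were measured tightly enough to bound their change. Their log2 fold changes ran from -0.035 to 0.019, and the widest of their 95% intervals reached from -0.12 to 0.12, that is from -7.79% to 8.31%. Each of the 8 intervals lay wholly above the interval of UNG. Coefficients of variation within a group ran from 0.218% (APTX, Olaparib) to 6.74% (OGG1, DMSO) over all 9 genes. The common biological coefficient of variation of the fit was 0.0353.

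A ratio between genes of the same sample does not depend on library scaling. UNG stood at 0.441 ± 0.0100 of the APEX1 count with Olaparib and at 0.512 ± 0.00208 with DMSO (SD, n = 3 each). Its ratio to FEN1 was 1.32 ± 0.0367 and 1.48 ± 0.0450. The ratios of UNG to each of the 8 other genes were lower in all 3 Olaparib samples than in any DMSO sample, each with an exact permutation p of 0.1, the smallest the design allows. These 8 ratios share the UNG counts and are not separate evidence. UNG made up 17.2% ± 0.275 of the summed normalized counts of the 9 genes with Olaparib and 19.3% ± 0.327 with DMSO. The sum without UNG was 19682 ± 346 normalized counts with Olaparib and 19701 ± 224 with DMSO, and its ranges overlapped.

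Levels were compared between genes per length, as normalized CPM (counts scaled to a library of fixed size) per kilobase of all annotated exons. In the DMSO samples the order was APEX1 at 130 ± 3.71, FEN1 at 38.6 ± 0.235, UNG at 23.8 ± 0.763, XRCC1 at 14.1 ± 0.304, POLB at 8.09 ± 0.338, TDP1 at 8.02 ± 0.0831, APTX at 2.34 ± 0.0570, LIG3 at 1.79 ± 0.0230 and OGG1 at 1.63 ± 0.110 (SD, n = 3 each). APEX1 stood 80.1-fold above OGG1. Of neighbours in this order, POLB and TDP1 overlapped over the samples, and the others did not. The AP endonuclease was at percentile 98.9 of the 20867 genes with such a level, and the glycosylase OGG1 and the ligase LIG3 were near the middle, at percentiles 51.3 and 52.6.

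Part of this order hangs on the length used. With the length of the canonical transcript in place of all annotated exons, a measure chosen after the first levels were seen, APEX1 remained highest at 169 and UNG came second at 61.4. FEN1 followed at 42.1, POLB at 25.7, XRCC1 at 18.9, APTX at 18.5, TDP1 at 13.4, OGG1 at 8.71 and LIG3 at 2.76. XRCC1 and APTX were then the neighbours whose samples overlapped. The levels of APTX and OGG1 moved most, since their annotated exons add up to 15614 and 8733 bases against 1977 and 1630 in the canonical transcript.

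**Figure D2:**
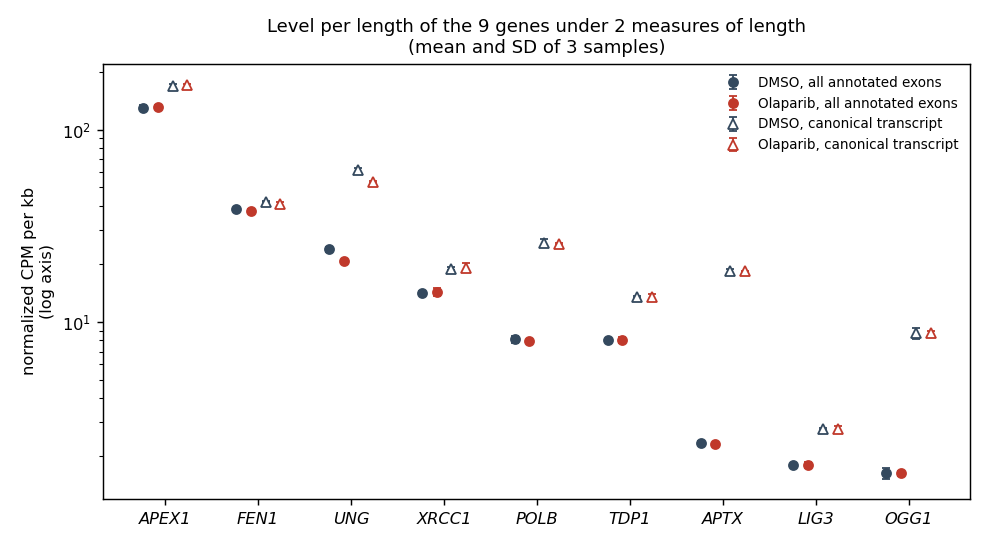
Level per length (normalized CPM per kb, log axis) of the 9 genes in DMSO and Olaparib samples, as mean and SD of 3 samples, with circles for all annotated exons and triangles for the canonical transcript. APEX1 is highest under both lengths, and APTX and OGG1 show the widest gap between circle and triangle.

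Some of these counts can gain or lose reads where exons overlap those of neighbouring genes. The libraries were stranded, but the strand setting of the counting, which bears on partners on the opposite strand, is not given in the sources used here. Exons of POLB, TDP1 and UNG overlap no other gene in GENCODE release 44. The exons of LIG3 share 29.1% of their bases with RFFL on the opposite strand (3366 counts in all samples together, log2 fold change -0.18, adjusted p = 0.0626 in the same edgeR test) and 1.40% with CCT6B (171 counts). Those of OGG1 share 24.9% with CAMK1 (366 counts) and 4.08% with TADA3 (13286 counts), both on the opposite strand. For XRCC1 the partners are the non-coding genes ENSG00000269583 (17.6%, 118 counts) and ENSG00000269177 (2.48%, 0 counts) on the opposite strand and ENSG00000268361, annotated as protein coding (8.16%, 0 counts), on the same strand. APTX overlaps the pseudogenes ASS1P12 (7.86%, 0 counts), TCEA1P4 (2.16%, 61 counts) and LAGE3P1 (1.36%, 15 counts), APEX1 overlaps PIP4P1 (4.88%, 6891 counts), and FEN1 overlaps FADS2 on the same strand (2.23%, 39160 counts). Processed pseudogenes took few reads, with 4 counts for FEN1P1 and 2 each for UNGP1 and UNGP3.

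The wider pathway was followed in 34 further genes, all of which passed the minimum. Of these, 1 was higher (2.15% of all genes tested), 0 were lower (1.21% of all), and the median log2 fold change was -0.014, with 14 genes above 0 and 20 below. At an unadjusted p under 0.05 the counts were 2 higher and 3 lower in edgeR, against 1702 and 1515 of all 21729 genes tested. At an adjusted p under 0.05, DESeq2's Wald test and limma voom also called 1 higher and 0 lower. Groups did not overlap in 6 of the 34 genes, 2 with Olaparib above and 4 below, a share near the 19.3% of all genes tested.

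Of the 9 further glycosylases, 0 passed the test, where 3.36% of all genes tested did, with 1 estimate above 0 and 8 below. The lowest was that of NEIL1, which excises oxidized bases, with 217, 234 and 242 normalized counts under Olaparib and 226, 266 and 265 under DMSO. The groups overlapped (log2 fold change -0.13, SE 0.084, adjusted p = 0.503, same edgeR test). The exons of NEIL1 share 26.4% of their bases with a gene on the opposite strand. That gene had 11138 counts in all samples together, against 1452 for NEIL1. No other glycosylase was called beside UNG. Over all genes tested, 11166 of 21729 estimates lay below 0, and the signs of the glycosylases were not tested as a set.

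Of the 4 break-sensing genes, 0 passed the test, against 3.36% of all genes tested. PARP1, the main target of Olaparib, had 21826, 21466 and 20943 normalized counts with Olaparib and 21471, 21291 and 21275 with DMSO, and the DMSO samples lay inside the Olaparib range (log2 fold change 0.0045, SE 0.027, adjusted p = 0.961, same edgeR test). PARP2, its second target, had a log2 fold change of -0.043 (SE 0.038, adjusted p = 0.674, same edgeR test).

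Of the 4 further end-processing genes, 0 passed the test, against 3.36% of all genes tested. TDP2, which releases topoisomerase II from 5′ ends, and APEX2, an endonuclease related to APEX1, are named after their values were seen. TDP2 had 1919, 1880.1 and 1862 normalized counts with Olaparib and 2077, 2026 and 2063 with DMSO, and APEX2 had 1459, 1469 and 1508 against 1568, 1588 and 1679. In both the groups did not overlap, which held for 19.3% of all genes tested. Their log2 fold changes were -0.12 each, with adjusted p values of 0.0904 and 0.117 in the same edgeR test.

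Of the 15 genes of long-patch synthesis and ligation, 1 rose, where 2.15% of all genes tested were higher. POLD2, a subunit of DNA polymerase delta, had 5581, 5825 and 5858 normalized counts with Olaparib and 5006, 5302 and 5525 with DMSO. All Olaparib samples lay above all DMSO samples, the nearest pair by a small margin (log2 fold change 0.12, SE 0.035, adjusted p = 0.0393, same edgeR test). Its call was lost without Olaparib replicate 2 (adjusted p = 0.132), Olaparib replicate 3 (0.169), DMSO replicate 1 (0.199) or DMSO replicate 2 (0.131). PCNA, the clamp that holds FEN1 and LIG1, had a log2 fold change of -0.058 (SE 0.030, adjusted p = 0.372, same edgeR test), and LIG1, the ligase of this branch, 0.048 (SE 0.040, adjusted p = 0.634). Of the other polymerases and accessory proteins, POLL and HMGB1, 0 passed the test, against 3.36% of all genes tested.

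**Figure D3:**
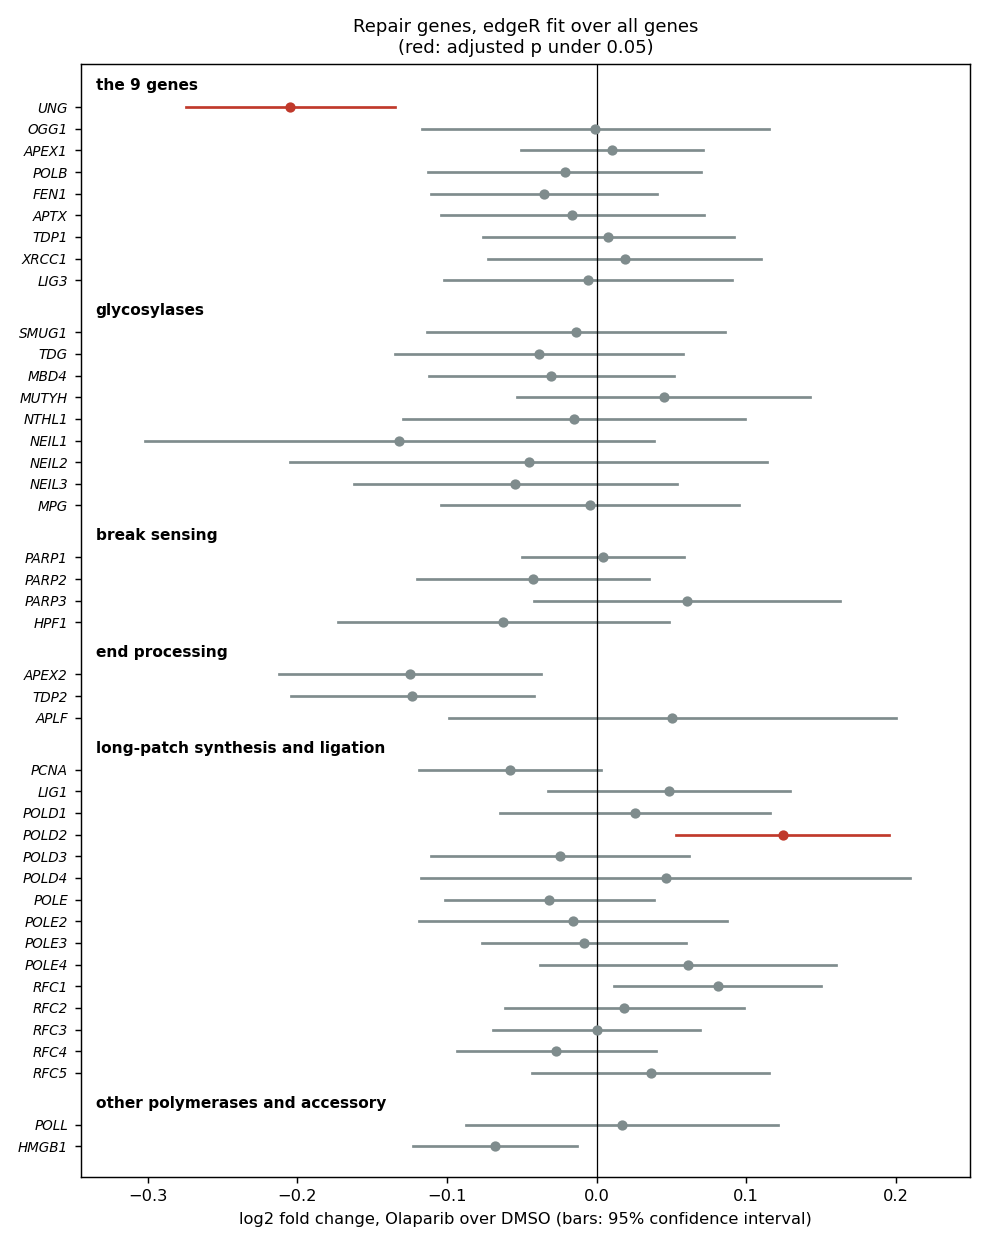
Log2 fold change of Olaparib over DMSO (horizontal axis) with 95% confidence intervals for the 9 genes and for the further pathway genes reported, grouped by role, with genes at an adjusted p under 0.05 in red. UNG at -0.20 and POLD2 at 0.12 are in red, and the intervals of the other 8 of the 9 genes cross 0.

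UNG and FEN1 are also on the S phase list of the Seurat package (43 genes), which marks cells in DNA replication, so the rest of that list was read beside them. Without the members and 3 genes of the wider pathway, 38 genes were left and 37 were tested. The remaining gene, UHRF1, was matched to no identifier in the count table. Of the 37, 0 were higher and 5 were lower at an adjusted p under 0.05 (same edgeR test), against 2.15% and 1.21% of all genes tested, with a median log2 fold change of -0.043. The 5, named after their values were seen, were CCNE2 (-0.38), a cyclin of S phase entry, DTL (-0.32), an adaptor of a ubiquitin ligase whose targets are bound to PCNA on chromatin, MCM6 (-0.22), a subunit of the replicative helicase, UBR7 (-0.17) and RRM2 (-0.11), a subunit of ribonucleotide reductase. The count was 3 without Olaparib replicate 3 or without DMSO replicate 2. Of the 37 genes, 3 had a lower log2 fold change than UNG. The estimates ran from -0.38 to 0.094, a range that holds every member, also those not on the S phase list. Groups lay apart in 15 of the 37 genes, 1 with Olaparib above and 14 below, against 19.3% of all genes tested. On the package's G2/M list, 17 of 54 genes were higher and 0 lower, against the same 2.15% and 1.21%, with a median of 0.077. The part of the cell cycle in the fall of UNG was not tested.

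**Figure D4:**
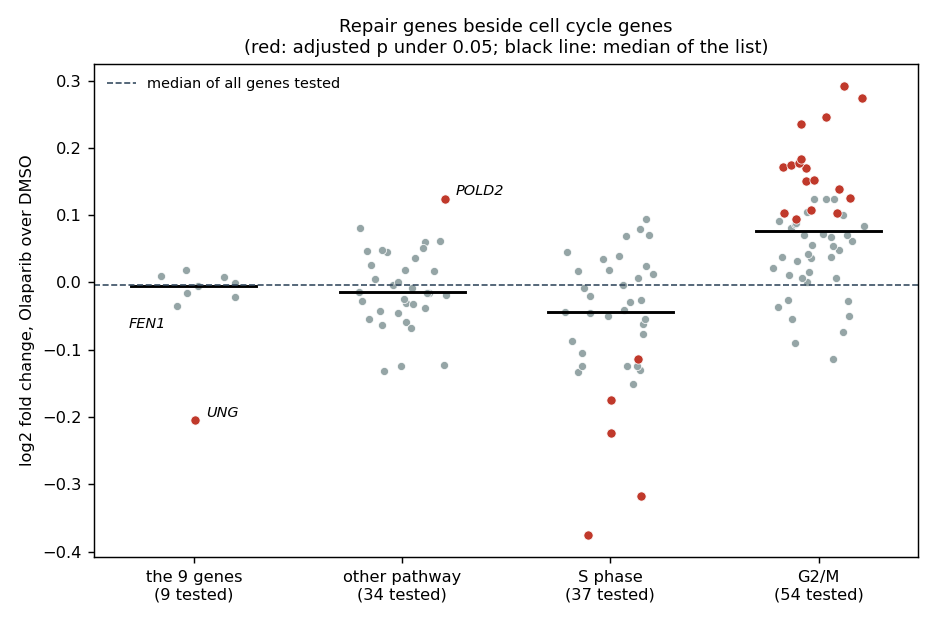
Log2 fold change of Olaparib over DMSO (vertical axis) of single genes in 4 lists, with genes at an adjusted p under 0.05 in red, a black line at each list's median and a dashed line at the median of all genes tested (-0.0042). UNG lies well below the other members. The range of the S phase list, whose median is -0.043, holds every member, and the G2/M list has a median of 0.077.

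Of 8 epithelial and ovarian carcinoma markers, 7 were above 3 counts in every sample, and WT1, a marker of many serous ovarian carcinomas, had 0 to 2 counts. Of 10 markers of other cell types, 5 were above 3 counts in every sample, PECAM1 was at 0, and only the endothelial cadherin CDH5 reached a per-length level over 1 (6.64 to 7.46). The epithelial markers, with KRT8 and KRT18 as the most abundant, summed to 9240 to 9658 CPM with Olaparib and 8900 to 9202 with DMSO, and those of other cell types, mostly CDH5, to 49.7 to 51.5 and 52.3 to 54.6, without a test of either sum. Single markers did not all follow the sum: EPCAM per length was lower with Olaparib (299 to 303 against 305 to 311). KRT8, KRT19, MUC16, PTPRC and COL1A1 were among the markers whose levels overlapped between groups. The part of these marker levels in the fall of UNG was not tested.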

How the data were processed

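Poly(A) RNA of 6 samples was sequenced from stranded libraries. The authors deposited raw read counts per gene, whole numbers that they obtained after Trimmomatic, STAR alignment to GRCh38 (hg38 in the labels) and featureCounts. Picard marked PCR duplicates, and their removal and the strand setting are not given in the sources used here. Samples were grouped by their titles. Counts of the 21729 genes with more than 10 counts in total were fitted in R 4.3.3 with edgeR 4.0.16 (TMM, quasi-likelihood F test, condition as the only term), and p-values were adjusted by Benjamini-Hochberg over all of them. Gene names, coordinates and exons came from GENCODE release 44 (GRCh38), which held 81.9% of the identifiers in the table and 96.0% of those tested. The count table has no length column, which the planned level per length had assumed, so exon lengths of that annotation were used. Alternatives were DESeq2 1.42.0, voom from limma 3.58.1, other scalings and filters, a replicate block, a fold limit of 1.2 and leaving out each sample. Cell cycle lists came from Seurat 5.3.0. Replicates of a condition differed beyond sampling noise (chi-square per degree of freedom 1.81 to 4.11 over 15525 genes). The members and lists were chosen with earlier results of these data known. The rule for named genes took all members, and of the other pathway genes those called, those with the highest and lowest log2 fold change, PARP1, PARP2, LIG1 and PCNA, and the genes whose exons overlap a member's. 1 gene under this rule is not reported here, though it stays in the counts over the pathway list.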

Additional observations from a re-analysis of the deposited data

How the results depend on the processing

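UNG was lower at an adjusted p under 0.05 in 14 of 14 refits, with log2 fold changes from -0.23 to -0.19 and adjusted p from 1.9e-06 to 0.00763, and FEN1 was called in 0. The counts of members stayed at 0 higher and 1 lower, except that the fold limit left 0 lower. POLD2 was called in 8 of 14 refits (log2 fold change 0.090 to 0.16), and the count of further pathway genes that rose was 0 with upper quartile scaling, library totals alone or the fold limit, and 0 to 1 when single samples were left out. The replicate numbers did not pair the samples (correlations of same-numbered deviations -0.21, 0.26 and -0.33 over 11997 genes), and not every sample correlated best with its own number. As a replicate block they gave 3 pathway genes lower (TDP2, APEX2 and HMGB1) in place of 0, 10 S phase genes lower in place of 5, and 805 genes higher and 517 lower over all genes. Leaving out single samples gave 3 to 7 S phase genes lower, and 270 to 567 genes higher and 127 to 303 lower over all genes. The fold limit left 157 and 105, and DESeq2 gave 156 lower. Signs of changes near 0 turned without a call. With library totals alone the log2 fold change was -0.00034 for APEX1, -0.0026 for TDP1 and -0.0063 for PARP1, with upper quartile scaling -0.0010 for TDP1 and -0.0047 for PARP1, and with limma voom 0.0015 for OGG1. With single samples left out it ran from -0.0081 to 0.061 for XRCC1, -0.032 to 0.023 for LIG3, -0.043 to 0.015 for POLB, -0.011 to 0.029 for APEX1, -0.029 to 0.0035 for APTX, -0.0075 to 0.036 for TDP1, -0.059 to 0.030 for OGG1 and -0.0077 to 0.018 for PARP1. The cause of these moves was not tested. OGG1 was the member with the fewest counts and the widest interval, and the part of depth in this was not tested.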
